A study of Mus musculus with 12 samples.

Results

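The genes described here encode the heat shock proteins and the DnaJ (J-domain) proteins of the mouse. They were chosen by symbol, as every gene named Hsp90, Hspa, Hspb, Hspd1, Hspe1, Hsph1, Dnaja, Dnajb or Dnajc, which gave 74 of the 27179 genes counted after 1 pseudogene was left out. The symbols covered 3 HSP90, 13 HSPA, 1 HSPH, 7 HSPB, 4 DNAJA, 13 DNAJB and 28 DNAJC genes, the chaperonin genes *Hspd1* and *Hspe1*, and 3 genes that share only the prefix. In all, 67 of the 74 passed the filter on low counts and were tested. Of the other 7, *Dnajb3*, *Dnajb7*, *Dnajb8*, *Dnajc22*, *Dnajc5b* and *Hspb9* reached at most 0.823 CPM (counts scaled to the library's size) in any muscle. *Dnajc5g* had 0 counts in all 12 muscles, which allows a level of up to 0.0705 CPM in the shallowest Control library, for counting error only.

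Heat shock proteins keep other proteins folded, and many are made in larger amounts under heat or proteotoxic stress through heat shock factor 1 (HSF1). HSP70 proteins (HSPA) bind and release unfolded stretches in a cycle driven by ATP, J-domain proteins bring clients to HSP70 and trigger ATP hydrolysis, and HSP90 proteins act late on kinases, receptors and myosin. Small heat shock proteins (HSPB) hold unfolding proteins without ATP and are abundant in striated muscle, where several sit on the Z-disc and on filaments.

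The measurement was bulk poly(A)+ RNA-Seq of tibialis anterior (TA) muscles from young adult male C57BL/6N wild-type mice. In each of 6 mice, 1 TA received 10 μg of the empty plasmid pcDNA3 (Control) and the opposite TA received 10 μg of plasmid encoding the human lncRNA *FRAIL1*, and both were taken at day 7. Both groups therefore share the plasmid backbone and dose, electroporation and the injection that precedes it, but only the *FRAIL1* plasmid carries an insert. The CMV promoter that drives *FRAIL1* is not restricted to a cell type, and *FRAIL1* itself is not among the mouse genes counted. The question was how the chaperone genes differ between *FRAIL1* and Control muscles. The libraries held 45018389 to 59309210 counts in the 6 Control and 44848322 to 60527385 in the 6 *FRAIL1* muscles. *FRAIL1* muscle 5 lay apart from the rest, at 59.5 on the first principal component against 25.8 for the next muscle, and the results below are also given without it or without both muscles numbered 5 where that changes them. Levels are given as CPM. Levels of different genes are compared only per length, as RPKM, which is CPM divided by exon length.

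Per length, the HSPB family held the gene with the highest level of all 74 in Control muscles, *Hspb6* (Hsp20), with a mean level of 792 RPKM. *Hsp90ab1*, the constitutive cytosolic HSP90, followed with 596 RPKM, then *Hspb8* with 248, *Hspa8*, the constitutive HSP70, with 247, *Hspa9*, the mitochondrial HSP70, with 192, and *Hspb7* with 128 RPKM. The stress-inducible HSP70 genes *Hspa1a* and *Hspa1b* had levels of only 1.29 and 1.2 RPKM, and the main inducible J-protein gene, *Dnajb1*, had 3.27 RPKM. *Hspa8*, *Hspa1a* and *Hspa1b* share 98% identity with other genes over most of their transcripts, so their levels are uncertain.

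With p-values of edgeR's quasi-likelihood test adjusted by Benjamini and Hochberg's method over all 15502 genes tested, in a fit without a term for the mouse, 8 of the 67 chaperone genes passed an adjusted p of 0.05, or 11.9%, against 6.28% of all genes. Of these, 5 rose in *FRAIL1* muscles (4.43% of all genes did), namely *Hspb8*, *Hspa2*, *Hspb7*, *Hspb3* and *Dnajb14*, and 3 fell (1.85% of all genes did), namely *Dnajb5*, *Dnajb9* and *Hspa12b*. The median log2 fold change over the 67 genes was -0.02, with 26 higher and 41 lower, against 0.0096 over all genes tested. All 6 *FRAIL1* values lay above all 6 Control values for 3 members (3.12% of all genes), *Hspb8*, *Hspb7* and *Hspa2*. They lay below for 4 members (1.77% of all genes), *Dnajb9*, *Hspa12b*, *Hspa5* and *Dnajc21*. The counts of calls varied with single muscles: leaving out 1 muscle at a time gave from 4 members called (without Control muscle 4 or *FRAIL1* muscle 1) to 13 (without *FRAIL1* muscle 2 or 3), and 5 without Control muscle 2 or 3 or *FRAIL1* muscle 4. *Hspb8*, *Hspa2*, *Hspb7* and *Dnajb5* passed in all 12 such fits and in all 23 alternatives, which include these 12.

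**Figure D1:**
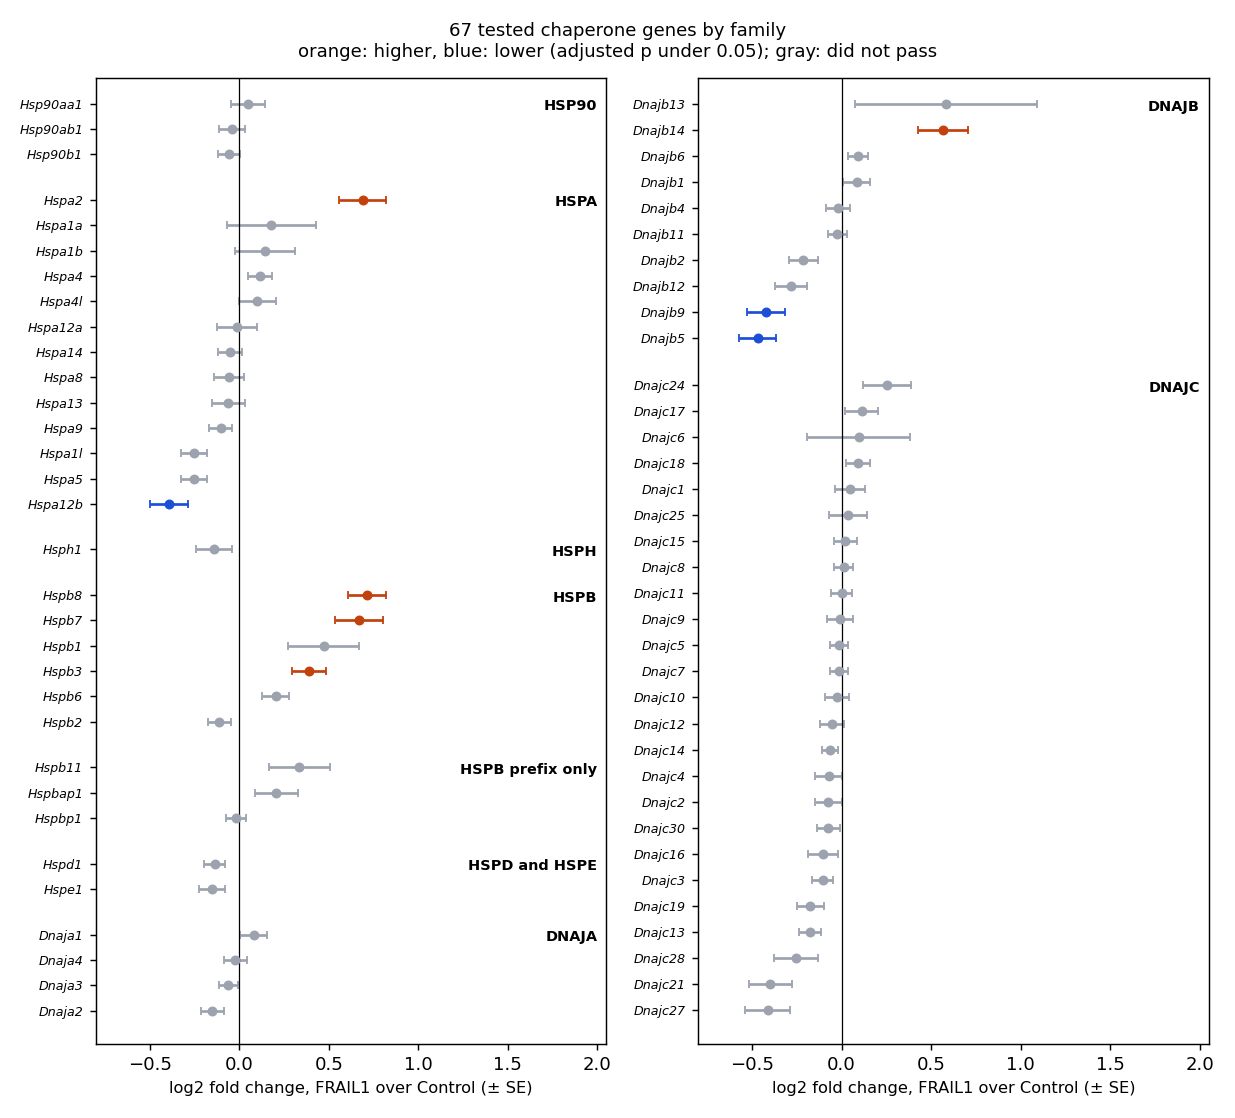
Log2 fold change of *FRAIL1* over Control (x axis, point ± SE) for the 67 tested genes, grouped by family (y axis), with orange for genes that rose, blue for genes that fell and gray for genes that did not pass an adjusted p of 0.05. The 3 orange points of the HSPB family lie between 0.39 and 0.71, while the HSP90, HSPH, chaperonin, DNAJA and DNAJC genes have no colored point.

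The small heat shock proteins were the family with the most calls for its size. Of 6 tested HSPB genes, 5 were higher and 3 rose, with a median log2 fold change of 0.43 over the 6. The summed HSPB level was 2039 ± 130 CPM in Control muscles and 2724 ± 245 CPM in *FRAIL1* muscles (SD, n = 6 each), and the ranges, 1849 to 2170 and 2338 to 2998 CPM, did not overlap. In bulk muscle, more RNA per cell and more cells of a type cannot be told apart.

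*Hspb8*, which works with BAG3 in the autophagic disposal of damaged filament proteins, had levels from 366.5 CPM (lowest) through 479.8 (median) to 491.5 (highest) in Control muscles and from 620.8 through 703.0 to 874.6 CPM in *FRAIL1* muscles. The groups did not overlap, and the highest *FRAIL1* levels were those of muscles 5 and 1. It rose 1.64-fold, by a log2 fold change of 0.71 ± 0.105 (SE), with an adjusted p of 0.0027 by edgeR's quasi-likelihood test, and the adjusted p was at most 0.0095 with any 1 muscle left out. *Hspb7*, a small heat shock protein of heart and skeletal muscle that binds filamin C, ranged from 229.3 through 379.5 to 437.7 CPM in Control and from 486.0 through 552.9 to 659.0 CPM in *FRAIL1* muscles. These groups did not overlap either, with Control muscles 1 and 2 lowest. The rise of *Hspb7* was 1.59-fold, with a log2 fold change of 0.67 ± 0.134 (SE) and an edgeR adjusted p of 0.0145. *Hspb3*, the muscle partner of HSPB2, ranged from 19.2 through 21.3 to 26.2 CPM in Control and from 23.8 through 27.4 to 33.5 CPM in *FRAIL1* muscles. The *Hspb3* groups overlapped, since Control muscle 5 lay above *FRAIL1* muscle 2. Its log2 fold change was 0.39 ± 0.0939 (SE), with an edgeR adjusted p of 0.0279, and without Control muscle 1, 2 or 4 or *FRAIL1* muscle 1 it no longer passed (adjusted p up to 0.0648).

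**Figure D2:**
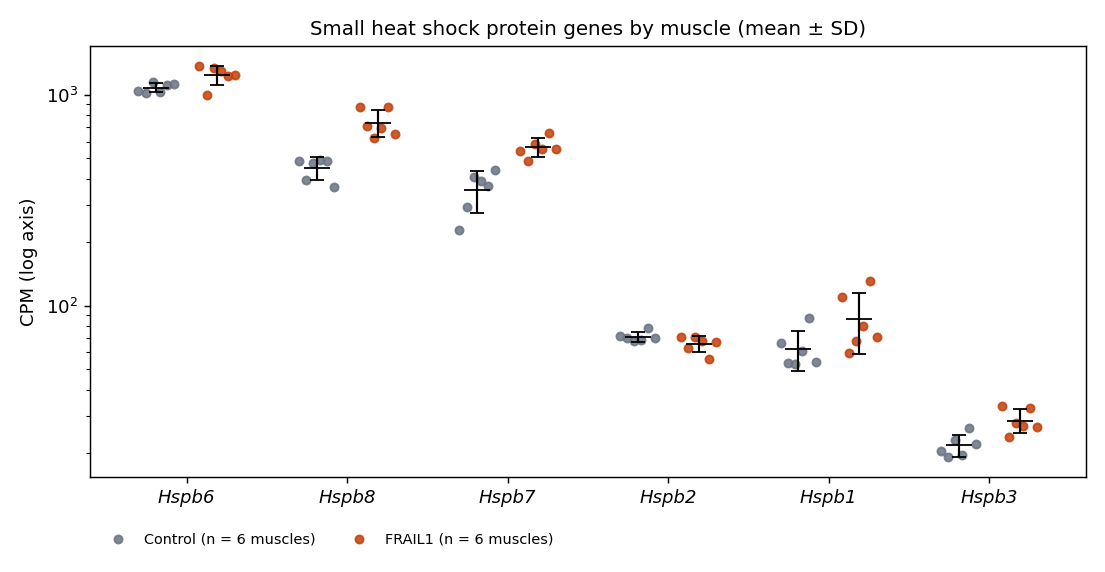
Level in CPM (y axis, log scale) of the 6 tested HSPB genes (x axis) in each Control (gray) and *FRAIL1* (orange) muscle, with black marks for mean ± SD (n = 6). The groups of *Hspb8* and *Hspb7* are separate, those of *Hspb3*, *Hspb6* and *Hspb1* overlap, and *Hspb2* has the lower mean in *FRAIL1* muscles.

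The other 3 HSPB genes did not pass in this fit, which has no term for the mouse. With a term for the replicate number (a block), *Hspb1* passed (edgeR adjusted p 0.0064), while *Hspb6* and *Hspb2* did not (0.0814 and 0.296). *Hspb6* passed without *FRAIL1* muscle 2, and with the block when both muscles numbered 5 were left out. *Hspb6*, a small heat shock protein also known as a phosphoprotein of smooth and cardiac muscle, had a mean level of 1079 ± 53.2 CPM in Control and 1243 ± 133 CPM in *FRAIL1* muscles (SD, n = 6 each), with an edgeR adjusted p of 0.108. *Hspb1* (Hsp25 in the mouse), which protects the actin cytoskeleton, had 62.5 ± 13.2 and 86.7 ± 27.9 CPM (SD, n = 6 each). Its log2 fold change of 0.47 had a 95% interval from 0.04 to 0.90 and an edgeR adjusted p of 0.146, and 51.8% of its transcript matches the copies Gm9817 and Hsp25-ps1. *Hspb2* had 71.3 ± 3.88 and 66.0 ± 5.78 CPM (SD, n = 6 each) and an edgeR adjusted p of 0.278. Its neighbour *Cryab*, the small heat shock protein alpha-B-crystallin, which is outside the symbols used here, had 543 ± 94.3 and 520 ± 78.4 CPM (SD, n = 6 each), with an edgeR adjusted p of 0.767. The exons of *Hspb2* and *Cryab* overlap on opposite strands over 30.2% of *Hspb2*, and counting by strand is not stated.

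Marker levels for fiber type, regeneration and connective tissue also differed between the groups. The summed level of 5 satellite cell and regenerating fiber markers was 163 to 211 CPM in Control and 319 to 1526 CPM in *FRAIL1* muscles, and *Myog*, *Myh3* and *Myh8* of the 5 rose. Slow fiber markers summed to 154 to 267 CPM in Control and 238 to 617 CPM in *FRAIL1* muscles. Of the 7, 6 were higher and 1 lower, with 4 called higher, *Tnnt1*, *Atp2a2*, *Tnni1* and *Tnnc1*, while *Myh7*, *Myl2* and *Myl3* did not pass. Fibroblast markers summed to 913 to 1738 and 1843 to 4825 CPM, macrophage markers to 84.1 to 132 and 99.0 to 226 CPM, and none of the 5 genes of either list passed by edgeR. *FRAIL1* muscle 5 had the highest sum of regeneration, slow fiber and fibroblast markers, and the next muscles had 643, 457 and 2293 CPM. The median log2 fold changes of these lists were 1.46, 0.90 and 0.75, and 1.16, 0.70 and 0.43 without both muscles numbered 5. At an unadjusted p under 0.05 there were 4 fibroblast and 3 macrophage markers, while DESeq2 called 2 and 3 and limma voom 1 and 1. Over all 15502 genes tested, edgeR gave 4297 an unadjusted p under 0.05, DESeq2 called 14.3% and limma voom 11.3%. Schwann cell markers summed to 37.2 to 75.3 and 26.3 to 48.2 CPM, with 0 of 4 called by edgeR, 1 by DESeq2, 0 by limma voom and 1 at an unadjusted p under 0.05. Fast fiber markers summed to 106552 to 127307 CPM in Control and 83599 to 113524 CPM in *FRAIL1* muscles, with 1 of 6, *Ckm*, called lower (edgeR adjusted p 0.0482), which did not pass without both muscles numbered 5 (0.0599). Their part in the higher HSPB levels was not tested. The HSPB median without both muscles numbered 5 was 0.42, and *Hspb8*, *Hspb7* and *Hspb3* passed there too.

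The promoters of these genes were searched for the letters that HSF1 is known to bind. For 60 members, the RefSeq table of GRCm38.p6 held the 250 bases before and 50 after 1 or more start sites. Of the 3 HSP90 genes only *Hsp90b1* was among them, so *Hsp90aa1* and *Hsp90ab1* were not searched. Heat shock elements (HSE) were searched on both strands as 3 blocks (GAANNTTCNNGAA or TTCNNGAANNTTC) and as 2 blocks (GAANNTTC or TTCNNGAA), where each 3-block match contains 2-block matches. The promoters below belong to *Hspb8*, *Hspb7* and *Hspb3* and to *Hspb1*, from 130 bases before the start to its last base before the start, 5′ to 3′ on the gene's strand, with 2-block matches in capitals. Their positions are chr5:116422865-116422994, minus strand for *Hspb8*, chr4:141420649-141420778, plus strand for *Hspb7*, chr13:113663677-113663806, minus strand for *Hspb3* and chr5:135887789-135887918, plus strand for *Hspb1*.
Hspb8: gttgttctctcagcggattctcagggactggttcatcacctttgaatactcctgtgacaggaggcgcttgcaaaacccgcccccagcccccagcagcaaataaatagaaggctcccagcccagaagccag
Hspb7: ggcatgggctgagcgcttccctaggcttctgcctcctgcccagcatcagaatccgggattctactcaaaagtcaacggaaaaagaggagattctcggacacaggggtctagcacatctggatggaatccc
Hspb3: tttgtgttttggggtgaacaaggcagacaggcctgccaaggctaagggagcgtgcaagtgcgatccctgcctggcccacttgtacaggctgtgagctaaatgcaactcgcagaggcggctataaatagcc
Hspb1: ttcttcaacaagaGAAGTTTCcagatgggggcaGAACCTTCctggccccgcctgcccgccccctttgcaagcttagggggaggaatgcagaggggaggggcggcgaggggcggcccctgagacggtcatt
*Hspb1* had 2 matches in this stretch, and the stretches of *Hspb8*, *Hspb7* and *Hspb3* had 0. In the full 300-base windows, 4 of 6 HSPB promoters held a 2-block match, against 16 of 60 members (26.7%) and 17.0% of 27025 genes. The match of *Hspb8* began 3 bases after the start and that of *Hspb3* beyond the printed stretch. That of *Hspb6*, which did not pass and is not shown, began at position -120 relative to the start.

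3-block matches were found in 4 of the 60 members (6.67%), in 0 of 10 HSPA promoters and in 0.662% of all promoters. The stress-inducible *Hspa1a* and *Hspa1b* had only a 2-block match and *Dnajb1* had neither. Only these exact letters were searched, so other forms of the element were not counted. The 3-block matches belonged to *Hspd1*, *Hspe1*, *Dnajb6* and *Hsph1*, and none of these 4 genes passed. *Hspd1* and *Hspe1* encode the mitochondrial chaperonin and its lid and share 1 bidirectional promoter. The shared match is shown on the strand of *Hspd1* (chr1:55088022-55088092, minus strand), beside that of *Dnajb6* (chr5:29735828-29735888, plus strand), with the 3-block matches in capitals.
Hspd1: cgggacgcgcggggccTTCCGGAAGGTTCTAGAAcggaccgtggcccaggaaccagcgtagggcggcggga
Dnajb6: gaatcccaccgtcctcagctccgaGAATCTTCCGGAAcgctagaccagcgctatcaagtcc
*Hspd1* had 161 ± 4.74 CPM in Control and 146 ± 11.6 CPM in *FRAIL1* muscles, and *Hspe1* had 44.8 ± 3.78 and 40.3 ± 3.72 CPM (SD, n = 6 each). Their edgeR adjusted p-values were 0.157 and 0.182, and most of both transcripts (71.1% and 81.0%) matches copies elsewhere or each other. *Dnajb6*, a J-protein of the Z-disc whose variants cause limb-girdle muscular dystrophy, had 39.4 ± 2.23 and 42.0 ± 2.39 CPM with an edgeR adjusted p of 0.29, and 47.3% of its transcript matches copies. *Hsph1* (Hsp110), a nucleotide exchange factor of HSP70, had 96.2 ± 12 and 87.2 ± 12.7 CPM with an edgeR adjusted p of 0.388 (SD, n = 6 each).

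Among the 13 HSPA genes, all tested, 1 rose and 1 fell. *Hspa2*, an HSP70 best known from the testis, had levels from 11.6 CPM through 13.2 to 14.2 in Control and from 17.1 through 19.3 to 31.9 CPM in *FRAIL1* muscles. The groups did not overlap, and *FRAIL1* muscle 5 was far above the others. The rise was 1.61-fold (log2 fold change 0.69 ± 0.132 SE, edgeR adjusted p 0.0124), and without both muscles numbered 5 the log2 fold change was 0.53 with an edgeR adjusted p of 0.0025. *Hspa12b*, a divergent HSP70 relative known from endothelium, ranged from 28.3 through 31.5 to 40.8 CPM in Control and from 21.6 through 25.9 to 28.3 CPM in *FRAIL1* muscles. The highest *FRAIL1* and the lowest Control level were equal at this rounding, so the groups met without overlapping. Its log2 fold change was -0.39 ± 0.107 (SE) with an edgeR adjusted p of 0.0453, and it passed in only 3 of the 12 fits that left out 1 muscle, those without Control muscle 1 or *FRAIL1* muscle 2 or 3, with an adjusted p up to 0.0919 in the other 9. Without both muscles numbered 5 its edgeR adjusted p was 0.12. Endothelial markers summed to 406 to 502 CPM in Control and 337 to 432 CPM in *FRAIL1* muscles. Of these 5, edgeR called 0, DESeq2 1 (14.3% of all genes) and limma voom 1 (11.3%). An unadjusted p under 0.05 by edgeR was found for 3 of them (4297 of all 15502 genes). Without both muscles numbered 5, 1 of the 5, *Pecam1*, fell (edgeR adjusted p 0.0397), and their part in the *Hspa12b* difference was not tested.

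The constitutive and the stress-inducible HSP70 genes did not pass. *Hspa8* had 592 ± 73.3 CPM in Control and 569 ± 39.4 CPM in *FRAIL1* muscles, with a 95% interval of the log2 fold change from -0.23 to 0.12. *Hspa1a* had 3.83 ± 1.47 and 4.32 ± 1.34 CPM, and *Hspa1b* had 3.37 ± 0.751 and 3.72 ± 0.852 CPM (SD, n = 6 each). Their intervals, from -0.35 to 0.71 and from -0.21 to 0.50 on the log2 scale, are wide, and reads of these near-identical genes could be split between them. *Hspa1l*, which overlaps Gm10501 on the opposite strand over 71.9% of its transcript, had a log2 fold change of -0.25 and an edgeR adjusted p of 0.0543.

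None of the 3 HSP90 genes passed by edgeR, DESeq2 or limma voom, and 0 had an unadjusted p under 0.05. *Hsp90ab1* had 1503 ± 102 CPM in Control and 1461 ± 112 CPM in *FRAIL1* muscles (SD, n = 6 each), with a log2 fold change of -0.04 and a 95% interval from -0.19 to 0.11. *Hsp90aa1*, the inducible cytosolic form, had 33.9 ± 5.50 and 35.2 ± 3.44 CPM, and *Hsp90b1*, the endoplasmic reticulum form, had 155 ± 11.1 and 149 ± 7.11 CPM (SD, n = 6 each). Their edgeR adjusted p-values were 0.767 and 0.562, with a limit from copies for *Hsp90aa1* (68.7% of the transcript) and from overlapping genes for *Hsp90b1* (21.6%). The direction of *Hsp90ab1* turned without both muscles numbered 5.

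Of 39 tested J-protein genes, 13 were higher and 26 lower, against 8002 higher and 7500 lower of all 15502 genes tested. Among them 1 rose and 2 fell, all 3 in the DNAJB family. The share called, 7.69%, was near the 6.28% of all genes. *Dnajb5*, a cytosolic J-protein related to DNAJB1, ranged from 168.2 through 201.0 to 225.1 CPM in Control and from 115.8 through 139.1 to 186.1 CPM in *FRAIL1* muscles. The groups overlapped in the levels of Control muscle 4 and *FRAIL1* muscle 3. It fell to 0.723 of the Control level (log2 fold change -0.47 ± 0.101 SE, edgeR adjusted p 0.0189). *Dnajb9* (ERdj4), a J-protein of the endoplasmic reticulum lumen and a known target of the unfolded protein response, ranged from 40.5 through 43.6 to 61.4 CPM in Control and from 28.1 through 36.2 to 38.1 CPM in *FRAIL1* muscles. The groups did not overlap, and Control muscle 4 was far above the other Control muscles. Its log2 fold change was -0.42 ± 0.106 (SE) with an edgeR adjusted p of 0.0339, which did not pass without Control muscle 1, 3 or 4 or *FRAIL1* muscle 1 or 4 (adjusted p up to 0.0757). *Dnajb14*, a J-protein of the endoplasmic reticulum membrane, was low, from 2.34 through 2.92 to 3.55 CPM in Control and from 3.39 through 4.38 to 5.33 CPM in *FRAIL1* muscles, and these groups overlapped. Its log2 fold change was 0.57 ± 0.139 (SE) with an edgeR adjusted p of 0.0304, and it passed in 5 of the 12 fits that left out 1 muscle, failing without Control muscle 2, 3, 4 or 6 or *FRAIL1* muscle 1, 4 or 6 (adjusted p up to 0.0683).

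**Figure D3:**
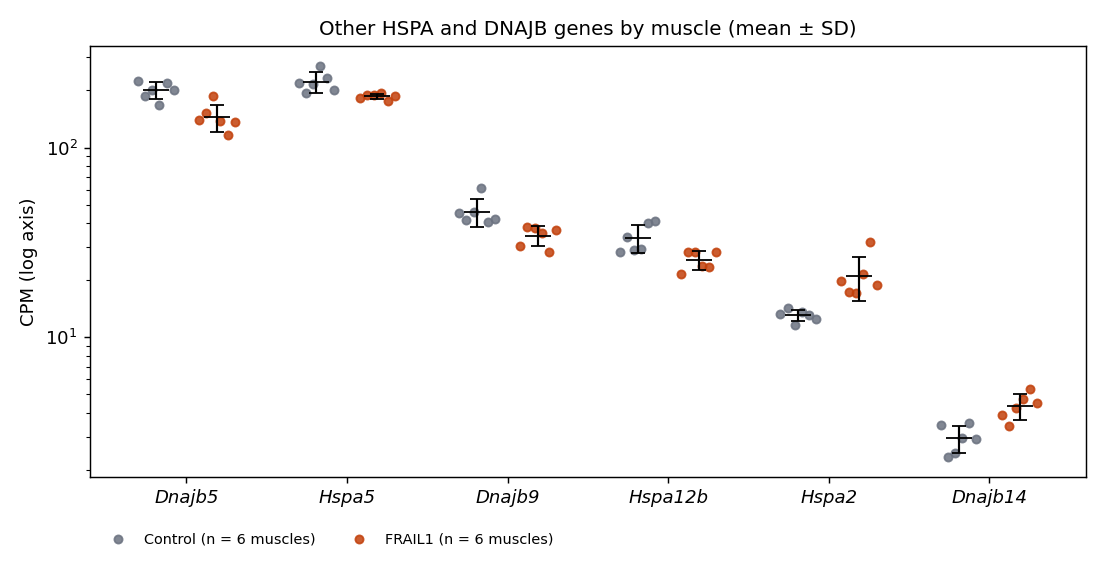
Level in CPM (y axis, log scale) of 6 HSPA and DNAJB genes (x axis) in each Control (gray) and *FRAIL1* (orange) muscle, with black marks for mean ± SD (n = 6). *Dnajb5*, *Dnajb9*, *Hspa12b* and *Hspa5* have the lower mean in *FRAIL1* muscles, *Hspa2* and *Dnajb14* the higher one.

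None of the 4 DNAJA and 25 tested DNAJC genes passed by edgeR without the block, though 3 of the 4 and 17 of the 25 had a negative log2 fold change. With the replicate block, edgeR called 0 DNAJA and 4 DNAJC genes, all lower. These were *Dnajc28* (adjusted p 0.0199), *Dnajc21* (0.0235), *Dnajc27* (0.0267) and *Dnajc13* (0.0445). At an unadjusted p under 0.05 there were 1 DNAJA and 4 DNAJC genes, against 4297 of all 15502 genes. DESeq2 and limma voom each called 0 and 2, against 14.3% and 11.3% of all genes. The lowest were *Dnajc27*, which encodes a small GTPase fused to a J-domain, at -0.41 ± 0.126 (SE) with an edgeR adjusted p of 0.0615, and *Dnajc21*, a factor of large ribosomal subunit assembly, at -0.40 ± 0.12 (SE) with 0.0586. *Dnajc27* had 107 ± 6.74 CPM in Control and 80.2 ± 17.3 CPM in *FRAIL1* muscles, and *Dnajc21* had 98.2 ± 3.39 and 74.5 ± 15.7 CPM (SD, n = 6 each). *FRAIL1* muscle 5 was lowest for both, at 49.6 and 46.8 CPM. Without that muscle the log2 fold changes were smaller, and both passed, with edgeR adjusted p-values of 0.0195 and 0.0158. *Dnajc24*, of diphthamide synthesis, had the highest log2 fold change of the DNAJC genes, 0.25, with an edgeR adjusted p of 0.227. *Dnajc7* and *Dnajc5*, a cochaperone of HSP70 and HSP90 and the cysteine string protein of secretory vesicles, had 95% intervals from -0.12 to 0.09 each.

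Other J-proteins of known role also did not pass. *Dnajb1*, the usual partner of inducible HSP70, had 10.5 ± 0.470 and 11.1 ± 1.16 CPM, *Dnajb4*, a cytosolic J-protein abundant in heart and muscle, 65.0 ± 5.46 and 64.2 ± 5.32 CPM, and *Dnajb2*, which sorts clients to the proteasome, 90.1 ± 7.74 and 77.7 ± 9.27 CPM in Control and *FRAIL1* muscles (SD, n = 6 each). Their edgeR adjusted p-values were 0.489, 0.888 and 0.106. *Dnaja1* and *Dnaja2*, cytosolic partners of HSPA8, had log2 fold changes of 0.08 and -0.15, and *Dnaja4* had -0.02, with edgeR adjusted p-values of 0.509, 0.15 and 0.863. Overlap with *Wdr61* covers 44.6% of *Dnaja4*, and copies match 32.1% of *Dnaja1*. *Dnajb13*, of cilia and sperm flagella, was among the faintest tested members, with 0.210 ± 0.137 and 0.319 ± 0.214 CPM (SD, n = 6 each). The genes that share only the Hspb prefix did not pass: *Hspb11*, an intraflagellar transport subunit, had a log2 fold change of 0.34 (edgeR adjusted p 0.209), and *Hspbp1*, a nucleotide exchange factor of HSP70, had -0.02 (0.859).

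By compartment, 10 tested members work in or on the endoplasmic reticulum, and 8 of them were lower, with 1 rise (*Dnajb14*) and 1 fall (*Dnajb9*). *Hspa5* (BiP), the HSP70 of the endoplasmic reticulum, ranged from 194.5 through 216.6 to 270.7 CPM in Control and from 175.8 through 188.6 to 193.4 CPM in *FRAIL1* muscles. Every *FRAIL1* muscle lay below every Control muscle, but the log2 fold change of -0.25 ± 0.0748 (SE) had an edgeR adjusted p of 0.0548. *Dnajc3* (p58IPK) had 41.2 ± 3.22 and 38.3 ± 1.84 CPM and *Dnajb11* (ERdj3) had 51.9 ± 2.95 and 51.1 ± 2.50 CPM (SD, n = 6 each), with edgeR adjusted p-values of 0.256 and 0.815. The endoplasmic reticulum stress element (ERSE), which ATF6 is known to bind, was searched on both strands as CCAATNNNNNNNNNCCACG or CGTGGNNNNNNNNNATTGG. It was found in 3 of the 60 member promoters (5%), those of *Hspa5*, *Dnajc3* and *Hsp90b1*, and in 0.137% of all promoters. The matches (capitals) of the first 2 are shown, from chr2:34772000-34772070, plus strand for *Hspa5* and chr14:118937807-118937865, plus strand for *Dnajc3*.
Hspa5: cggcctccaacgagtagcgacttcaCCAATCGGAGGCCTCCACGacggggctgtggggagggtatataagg
Dnajc3: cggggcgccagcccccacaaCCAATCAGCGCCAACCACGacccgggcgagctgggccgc
All 3 genes had lower means in *FRAIL1* muscles and none passed without the block, while *Dnajb9*, which fell, had no match in its window. *Hspa5* lay near the threshold: it passed with the replicate block (edgeR adjusted p 0.0378) and in 4 of the 23 alternatives in all.

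The 8 tested mitochondrial members had 7 lower and 1 higher value and 0 called by edgeR, DESeq2 or limma voom. An unadjusted p under 0.05 by edgeR was found for 2 of them, against 4297 of all 15502 genes. *Hspa9* (mortalin), the HSP70 of the matrix and of protein import, had 585 ± 29.3 CPM in Control and 545 ± 40 CPM in *FRAIL1* muscles (SD, n = 6 each), with an edgeR adjusted p of 0.317. The median log2 fold change of the 8 was -0.09, and -0.07 without both muscles numbered 5.

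The genes that work with these chaperones were taken from 7 lists, chosen with earlier results of these data known. Of 109 tested genes that are not members, 2 rose and 4 fell, with a median log2 fold change of -0.02. The share called, 5.50%, was no higher than the 6.28% of all genes, of which 4.43% rose and 1.85% fell. With 1 muscle left out, the 6 calls became 1 (without Control muscle 1, 2 or 3 or *FRAIL1* muscle 1), 2 (without Control muscle 4, 5 or 6 or *FRAIL1* muscle 6), 3 (without *FRAIL1* muscle 4) or 12 (without *FRAIL1* muscle 3). The heat shock factor list had 2 of 14 called: *Hsf2*, a heat shock factor of development and proteotoxic stress, rose by 0.30 ± 0.0740 (SE, log2 fold change; edgeR adjusted p 0.032), and *Fkbp4*, an HSP90 immunophilin, fell by 0.27 on the log2 scale (0.0469). *Hsf1* had 56.6 ± 4.34 CPM in Control and 46.7 ± 5.80 CPM in *FRAIL1* muscles (SD, n = 6 each), with an edgeR adjusted p of 0.0534. Among 25 HSP90 cochaperone genes, *Itgb1bp2* (melusin), a muscle chaperone at the costamere, rose from 123 ± 6.42 to 175 ± 41.8 CPM (edgeR adjusted p 0.0302), and *Tsc1*, like *Fkbp4*, fell. Of 25 endoplasmic reticulum folding and unfolded protein response genes, 1 passed: *Atf4*, a transcription factor of the integrated stress response, fell from 141 ± 10.4 to 112 ± 11 CPM (edgeR adjusted p 0.0203). *Spg7*, a subunit of a mitochondrial inner membrane protease, was the 1 of 13 mitochondrial folding and protease genes that passed, and it fell.

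No gene passed by edgeR among 17 HSP70 cochaperones, 15 TRiC and prefoldin genes and 13 genes of chaperone-assisted autophagy and its Z-disc clients. In these lists 4, 1 and 2 had an unadjusted p under 0.05, against 4297 of all 15502 genes. *Bag3*, the partner of HSPB8, had 130 ± 11.6 CPM in Control and 136 ± 8.46 CPM in *FRAIL1* muscles (SD, n = 6 each), with an edgeR adjusted p of 0.534. *Flnc*, filamin C, had 1412 ± 243 and 1540 ± 297 CPM (0.589), and *Stub1*, the ubiquitin ligase CHIP, had 51.0 ± 3.41 and 51.8 ± 4.27 CPM (0.862). DESeq2 called 0, 1 and 2 genes of these lists and limma voom 0, 1 and 1, against 14.3% and 11.3% of all genes. Without both muscles numbered 5, edgeR called 0, 1 and 1, namely *Cct3*, a TRiC subunit, higher (adjusted p 0.0451 against 0.0553 with all muscles) and *Xirp2*, an actin-binding protein of muscle, lower (0.0457 against 0.0706).

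**Figure D4:**
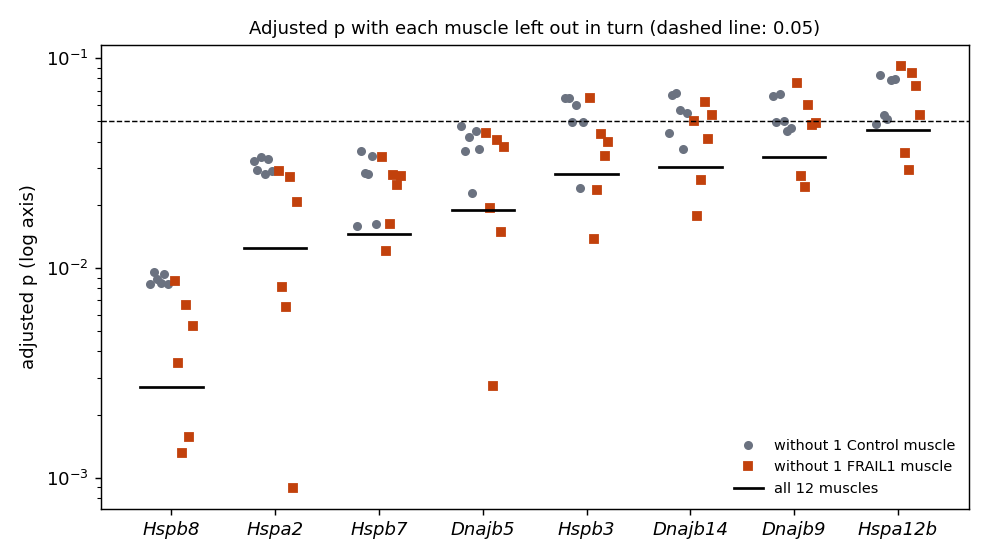
Adjusted p (y axis, log scale) of the 8 members that passed (x axis) with each muscle left out in turn, gray circles for Control and orange squares for *FRAIL1* muscles, black lines for all 12 muscles and a dashed line at 0.05. All points of *Hspb8*, *Hspa2*, *Hspb7* and *Dnajb5* lie under the dashed line, and 8, 5, 7 and 3 of the 12 points of *Hspb3*, *Dnajb14*, *Dnajb9* and *Hspa12b* do.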

How the data were processed

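Poly(A)+ RNA-Seq of 12 TA muscles (6 Control, 6 *FRAIL1*) was analysed. The authors trimmed the reads with Trimmomatic, mapped them to mm10 with STAR 2.7.8a and counted uniquely mapped reads per gene with featureCounts 2.0.1, and the deposited values are whole counts without normalization. Of 27179 NCBI Gene IDs, 25275 were given a symbol from GRCm38, and the rest took 0.280% of counts. Libraries of a group differed from each other by more than counting noise.

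The filterByExpr filter left 15502 genes, which were scaled with TMM (factors 0.935 to 0.983 in Control, 0.965 to 1.19 in *FRAIL1* muscles) and tested in edgeR 4.0.16 (R 4.3.3) by glmQLFit with robust estimation and glmQLFTest. A gene was called at an adjusted p under 0.05 (Benjamini-Hochberg). The test has no term for the mouse, and the labels do not state that a replicate number marks a mouse. Each library held at least 44848322 counts, so the variation among muscles sets the error, except for members under 1 CPM. RPKM used the union of exon lengths. Overlap with other exons and copies of at least 98% identity over 100 bases were taken from the annotation and a BLAST search. On simulated counts, DESeq2's Wald test called more unchanged genes than the limit set for the other tests. That limit was lifted for it after this was seen, so its counts of calls may be too high. The simulation had no effect of the mouse and fewer changed genes than were called in these data, so the size of any excess here was not tested.

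The members, the lists and the alternatives were chosen with earlier results of these data known. Named were all members past the threshold, in each family the member highest per length in Control and those with the largest rise and fall, members of textbook role, and partner genes past the threshold. *Cryab*, *Hsf1*, *Bag3*, *Flnc*, *Stub1*, *Dnajc21*, *Hspa1l*, *Cct3*, *Xirp2* and *Pecam1* were named after their values were seen. The compartments were assigned after the files were opened. The 3-block element was searched first, and the 2-block element, the ERSE and the promoter stretches shown were chosen after the members' values were seen. Promoters on chromosome 18 were left out. The alternatives were scaling by upper quartiles, by the size factors of DESeq2, or by TMM leaving out mitochondrial and the 20 highest genes, a filter of 10 counts in each muscle or none, DESeq2 1.42.0, limma 3.58.1 (voom with quality weights), a fit that was not robust, the replicate block, each muscle left out and both muscles numbered 5 left out.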

Additional observations from a re-analysis of the deposited data

Results flagged for a closer look

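Single muscles stood far from the rest of their group, by Dixon's criterion (the gap to the next muscle against the group's range), in 6 of 76 groups of named members. The criterion's rate of about 1 in 20 is for a single group. These groups share the same 12 muscles and the genes were partly chosen by their values, so the count was not tested against it. *FRAIL1* muscle 5 was the highest of its group for *Hspa2* (31.9 CPM against 21.5 for the next), *Dnaja1* (41.3 against 35.4 CPM) and *Dnajb1* (13.3 against 11.5 CPM). In Control muscles, *Dnajb9* reached 61.4 CPM in muscle 4 (next 45.8), *Hspb2* 78.8 CPM in muscle 5 (next 71.7) and *Dnajb13* 0.468 CPM in muscle 1 (next 0.223). The causes were not tested. *Hspa2* passed without *FRAIL1* muscle 5, with a log2 fold change of 0.53, and *Dnajb9* did not pass without Control muscle 4.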

How the results depend on the processing

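The number of members called, 8, was 13 with DESeq2's Wald test, 16 with the replicate block, 17 with the block and without both muscles numbered 5, and 4 to 13 with 1 muscle left out. Over all genes, 974 calls became 2211 with DESeq2, 1756 with limma voom, 2186 with the replicate block, 2305 with the block and without both muscles numbered 5, and 364 to 2110 with 1 muscle left out. For the partner lists, 6 calls became 11, 10, 11 and 14 under the same settings in that order, and 1 to 12 with 1 muscle left out. The median log2 fold change of the members lay between -0.035 and -0.019 with 1 muscle left out. All 8 members passed under each scaling and filter alternative.

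Muscles of 1 replicate number share only that number in the labels. The correlations of their deviations from the group means were 0.254, 0.162, 0.282, 0.263, 0.0547 and 0.185 for numbers 1 to 6, so that 5 of 6 pairs were over 0.1, and 10 of the 12 muscles correlated best with their own number, a hint from the data and not from the labels. The block kept all 8 calls and added *Dnajb12*, *Dnajc13*, *Dnajc21*, *Dnajc27*, *Dnajc28*, *Hspa1l*, *Hspa5* and *Hspb1*, with 6 higher and 10 lower in all. The edgeR adjusted p-values with the block were 0.0064 for *Hspb1*, 0.015 for *Hspa1l*, 0.024 for *Dnajc21*, 0.027 for *Dnajc27* and 0.038 for *Hspa5*. Of these genes, *Hspb1* passed only with the block. *Hspa1l*, *Dnajc21*, *Dnajc27* and *Hspa5* also passed without it, by DESeq2 and by edgeR without *FRAIL1* muscle 3.

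Without both muscles numbered 5, 9 members passed: *Hspa12b* did not (adjusted p 0.12 by edgeR), while *Dnajc21* and *Dnajc27* did. Directions turned only for genes near 0 that never passed, and the cause was not tested. The log2 fold change of *Hsp90ab1* became 0.015 and, with the block, 0.013, that of *Hspbp1* 0.0036 and 0.0065, and that of *Hspa8* 0.0010 with the block, all without both muscles numbered 5. With 1 muscle left out, *Dnaja4* ranged from -0.057 to 0.0086, *Dnajb4* from -0.059 to 0.0077 (also 0.0047 and 7.1e-05) and *Dnajc5* from -0.043 to 0.0038 (also 0.0037). Of the other values for single named members, 819 kept their direction and side of the threshold, 17 passed in addition and 26 no longer passed. Depth limits the members under 1 CPM.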

Other observations

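The median coefficient of variation over the 67 tested members was 7.81% in Control and 8.98% in *FRAIL1* muscles, with 22.1% in Control for *Hspb7*, 21.1% and 32.2% for *Hspb1*, and 38.5% and 31.1% for *Hspa1a*. Of the 67, 36 varied more in *FRAIL1* muscles. For 49 of the 67, the 95% interval of the log2 fold change lay within 0.5 on either side of 0. Neither count was compared with that over all genes tested.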
